A study of Homo sapiens with 6 samples.

Results

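The snoRNA host noncoding genes are a named family of genes without a protein product, most of which carry small nucleolar RNAs (snoRNAs) within the gene. Members were chosen by name alone: every GENCODE gene called SNHG with a number, together with GAS5, ZFAS1, DANCR and EPB41L4A-AS1. The annotation held 32 such genes, and 29 of them had a counted transcript among the 37339 transcripts matched in the series. SNHG9, SNHG19 and SNHG25 had no matched transcript and were not analysed here. All libraries came from untreated cells of 1 line, K562, a human chronic myelogenous leukemia line, grown in RPMI-1640 medium with fetal bovine serum and penicillin/streptomycin. The methods place both assays on cells from the same flask, so the p-values below measure the spread between libraries of that source and not between cultures. PRO-seq, with 2 libraries, sequences nascent RNA from engaged polymerases and reads transcription. Total RNA-seq after rRNA depletion, with 4 libraries, reads the RNA present at steady state, polyadenylated or not. In bulk libraries, fewer cells with an RNA and less RNA per cell cannot be told apart.

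SnoRNAs guide chemical changes in other RNAs: box C/D snoRNAs direct 2′-O-methylation, and box H/ACA snoRNAs direct pseudouridylation. The related scaRNAs act on spliceosomal RNAs in Cajal bodies. In human cells most of these RNAs are cut out of spliced introns, so transcription of a host gene can yield both a snoRNA and a spliced host transcript. Several spliced host transcripts, GAS5 among them, hold short reading frames and are known substrates of nonsense-mediated decay during translation. Many hosts also belong to the 5′ terminal oligopyrimidine (TOP) class, whose transcripts start with C and a run of pyrimidines, as ribosomal protein mRNAs do.

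A TOP-like start was defined as C at the start base of the RefSeq promoter entry followed by at least 4 bases that are C or T, read on the gene's own strand only. RefSeq promoters on GRCh38.p14 were matched for 27 of the 29 members, and 6 of them (22.2%) had such a start. The same letters were found at 48 of 85 ribosomal protein promoters (56.5%), at 421 of 12917 lncRNA promoters (3.26%) and at 1429 of all 35116 promoters (4.07%). The sequences are shown because they let the start of each host be compared with the values that follow. Each gives 10 bases before the start and 25 bases from it, 5′ to 3′, with C and the unbroken pyrimidine run from the start site in capitals.
SNHG12, chr1:28581849-28581883, minus strand: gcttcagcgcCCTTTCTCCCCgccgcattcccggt
ZFAS1, chr20:49278632-49278666, plus strand: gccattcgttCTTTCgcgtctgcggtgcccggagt
SNHG5, chr6:85678709-85678743, minus strand: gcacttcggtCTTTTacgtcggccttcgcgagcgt
SNHG4, chr5:139274091-139274125, plus strand: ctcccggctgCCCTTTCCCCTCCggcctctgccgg
SNHG32, chr6:31834906-31834940, plus strand: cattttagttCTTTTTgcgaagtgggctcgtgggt
SNHG7, chr9:136728160-136728194, minus strand: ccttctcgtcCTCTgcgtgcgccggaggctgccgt
SNHG26, chr7:22854230-22854264, plus strand: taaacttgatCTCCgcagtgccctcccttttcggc
SNHG1, chr11:62855861-62855895, minus strand: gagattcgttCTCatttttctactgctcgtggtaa
SNHG29, chr17:16438977-16439011, plus strand: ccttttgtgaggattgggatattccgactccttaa

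The first 5 of these sequences met the definition, and the sixth member that met it was SNHG18, which was close to silent. SNHG7 and SNHG26, with runs of 4 pyrimidines, and SNHG1, with a run of 3, fell just short of the required 5 bases. SNHG29 had no pyrimidine at its annotated start. For SNHG12 and ZFAS1 the start base of the entry (28581873 and 49278642) lies inside the RefSeq gene span and not at its end, so another RefSeq start of these genes was not read here. No match says only that these letters are not at the annotated base, and the RefSeq start need not be the start used in K562 cells.

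Counts on transcription units (TUs), the transcripts on which reads were counted, ranged from 5732780 to 9002746 per RNA-seq library and were 6993816 and 7245632 in PRO-seq. The members took between 0.358% and 0.387% of the RNA-seq counts and 0.363% and 0.354% of the PRO-seq counts. RNA-seq replicates 1 and 3, and replicates 2 and 4, were close (chi-square per degree of freedom 1.11 and 1.12, against at least 1.74 for the other pairs), but differed by more than sampling noise and were kept as separate libraries. Of the K562 markers, GATA1 stood at 155 TPM, KLF1 at 186 TPM and HBG1 at 1828 TPM in RNA-seq, whereas the markers of lymphocytes (CD3E) and hepatocytes (ALB) stood at 0.324 and 0.483 TPM. Of the epithelial markers, KRT5 stood at 0.0328 TPM but EPCAM at 120 TPM.

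Counts were converted to TPM (the transcript's share of all transcripts, scaled to a fixed sum), a level per length, with exon length for RNA-seq and, for PRO-seq, the TU span less the 1000 bp that the counting left out at its ends. The ratio of RNA-seq TPM to PRO-seq TPM is taken, as by the authors, as proportional to RNA half-life at steady state. The authors name a limit: PRO-seq reads engaged polymerases, which depend on elongation rate as well as transcription rate. They also found half-lives from these new libraries more variable, and in poorer agreement with published estimates, than those from earlier published data. The ratio has no unit of time, so it is given as log2 relative half-life with the median mRNA at 0. As in the methods, a TU was used only where PRO-seq exceeded 10 TPM and RNA-seq exceeded 1 TPM. Of the 29 members, 18 (62.1%) passed, compared with 46.1% of mRNAs and 8.09% of 13691 other long noncoding genes.

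Most members that passed had high PRO-seq levels for a noncoding gene. Their median was 608 TPM in PRO-seq, and in RNA-seq it was 112 TPM, against 41.4 and 3.67 TPM for the 1108 other long noncoding genes that passed and 47.5 and 31.2 TPM for the 8733 mRNAs. Over all 29 counted members the medians were 116 and 56.3 TPM, against 0.408 and 0.0231 TPM over all 13691 other long noncoding genes. In PRO-seq, 15 of the 18 stood at or above 100 TPM. The lowest were SNHG21 (24.8 TPM) and SNHG11 (29.2 TPM), under the median of the other long noncoding genes that passed, and SNHG30 (56.1 TPM). SNHG8, host of the box H/ACA RNA SNORA24, stood at 3913 TPM in PRO-seq, and 1 other long noncoding gene of 13691 was higher. That level rests on 141 counts in the 69 bp that the removal of 1000 bp left of SNHG8, and depends on this length. This middle part of the gene (chr4:118278762-118279823) is where RefSeq places SNORA24 (118279190-118279320). Reads of a snoRNA within a PRO-seq interval or a counted exon were not separated from those of its host. Their part in the levels and relative half-lives of the members was not tested. SNHG1 followed SNHG8 at 3747 TPM, with 2 other long noncoding genes higher. Among the 18, PRO-seq and RNA-seq TPM were positively related (Spearman's rho = 0.62 across genes, which share the same 6 libraries and are not independent replicates). Levels of RNA still differed widely at like PRO-seq levels per length: SNHG29 and SNHG26 had 264 and 278 TPM in PRO-seq, but 1322 and 5.64 TPM in RNA-seq. These PRO-seq levels rest on 5328 counts over 38642 bp for SNHG29 and 916 counts over 6311 bp for SNHG26, and so depend on length.

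**Figure D1:**
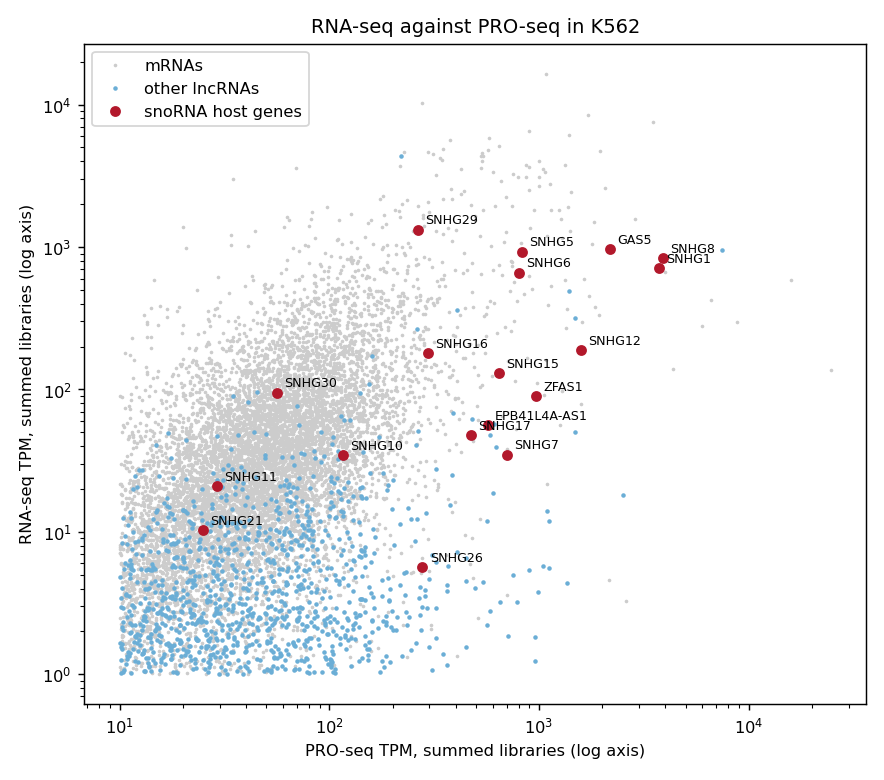
RNA-seq TPM (vertical, log axis) against PRO-seq TPM (horizontal, log axis), both from summed libraries, for TUs past the thresholds; grey points are mRNAs, blue points other long noncoding genes and red points the 18 snoRNA host genes. SNHG29 and SNHG26 lie one above the other near 270 TPM in PRO-seq, with 1322 and 5.64 TPM in RNA-seq.

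Relative half-lives of the host transcripts ran from 31.7-fold below the median mRNA for SNHG26 to 7.78-fold above it for SNHG29. By the quasi-likelihood test of edgeR, with p-values adjusted by Benjamini-Hochberg over all 10053 TUs tested, 12 of 18 members fell below the median mRNA, 4 were above it and 2 were not called. Over all TUs tested, 50.4% were called below and 40.0% above, so a call alone sets few TUs apart. Among the other long noncoding genes 89.0% were called below and 3.88% above. The median log2 relative half-life of these 18 was −1.35, and ranged from −1.53 to −1.21 over the 8 ways of setting 1 RNA-seq library against 1 PRO-seq library. It depended more on length: it was −0.66 with 500 bp in place of 1000 bp removed from the PRO-seq interval, −1.76 with the RefSeq gene span and 0.048 with no length (CPM, counts scaled to the library but not to length). The other long noncoding genes had a median of −2.68, and 14 of the 18 members were above it. No test was made over the members, since genes are not replicates.

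**Figure D2:**
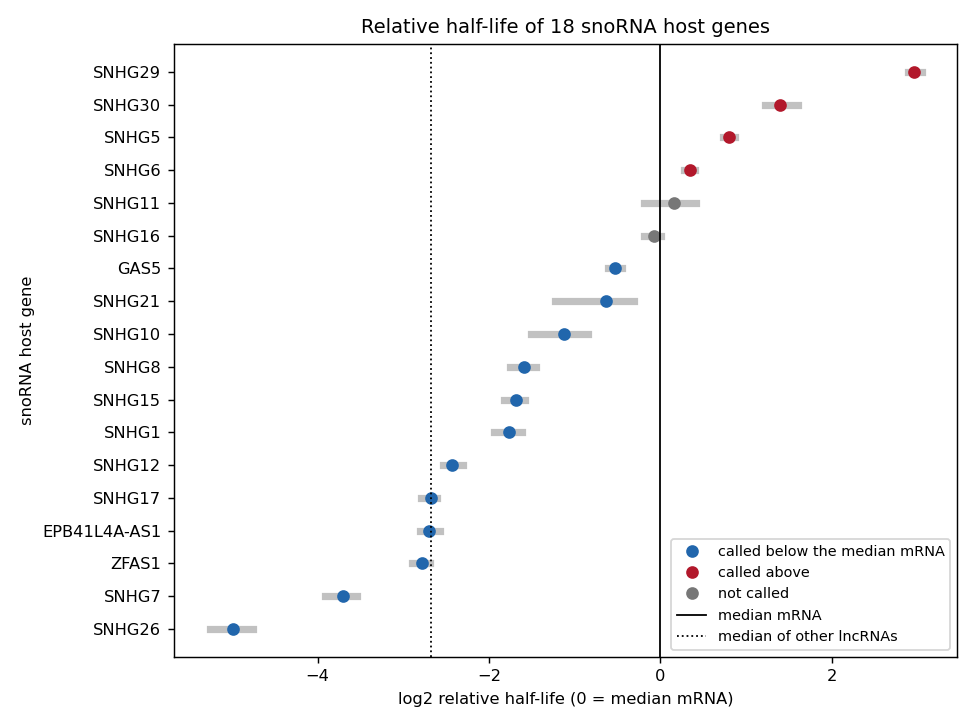
Log2 relative half-life (horizontal, 0 is the median mRNA, solid line) of the 18 snoRNA host genes; points are the edgeR estimates, coloured by call, and grey bars span the 8 ways of setting 1 RNA-seq library against 1 PRO-seq library. The dotted line is the median of other long noncoding genes (−2.68), and 14 of the 18 points lie to its right.

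The lowest value belonged to SNHG26 (chr7:22854240-22861436, plus strand), host of the box C/D RNA SNORD93. Its RNA-seq levels were 4.73, 6.52, 4.94 and 6.24 TPM in replicates 1 to 4, against 281 and 275 TPM in PRO-seq. The RNA-seq libraries were all far under the PRO-seq libraries, and the log2 relative half-life was −4.99 (SE 0.12, adjusted p = 1.23e-27, edgeR). Only 0.389% of mRNAs and 12.7% of the other long noncoding genes had a lower value. SNHG7 (chr9:136724594-136728184, minus strand), host of SNORA17A and SNORA17B, followed. Its levels were 35.6, 36.8, 34.3 and 31.9 TPM in RNA-seq and 660 and 748 TPM in PRO-seq. The log2 relative half-life was −3.70 (SE 0.07), 13.0-fold below the median mRNA. Counted TUs on the opposite strand cover 40.8% of its PRO-seq interval, and their part in the value was not tested.

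ZFAS1 (chr20:49278178-49289260, plus strand) lies head to head with ZNFX1 and carries SNORD12, SNORD12B and SNORD12C. It held 92.6, 86.6, 93.2 and 88.8 TPM in RNA-seq and 991 and 943 TPM in PRO-seq. Both assays were tight between replicates, and the log2 relative half-life was −2.79 (SE 0.04), 6.89-fold below the median mRNA. EPB41L4A-AS1 (chr5:112160526-112162501, plus strand), host of SNORA13, had 54.5, 61.5, 52.9 and 54.4 TPM in RNA-seq and 566 and 572 TPM in PRO-seq. SNHG17 (chr20:38420588-38435328, minus strand), host of SNORA71A, SNORA71B, SNORA71C and SNORA71D, had 49.1, 49.3, 44.5 and 46.3 TPM in RNA-seq and 464 and 480 TPM in PRO-seq. The log2 relative half-lives were −2.71 (SE 0.08) for EPB41L4A-AS1 and −2.67 (SE 0.07) for SNHG17. ZFAS1, EPB41L4A-AS1 and SNHG17 could not be ordered: the 95% interval of each neighbouring difference, from the fitted SEs, held 0.

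Between these and the median mRNA lay SNHG12, SNHG1, SNHG15, SNHG8, SNHG10, SNHG21 and GAS5, all called below, at log2 values from −2.43 to −0.53. SNHG1 (chr11:62851978-62855885, minus strand) has 8 box C/D snoRNAs in its span. It held 662, 774, 643 and 753 TPM in RNA-seq and 3791 and 3703 TPM in PRO-seq. Replicates 2 and 4 were above replicates 1 and 3, which are the close pairs of libraries given above, and all 4 were well under PRO-seq (log2 relative half-life −1.77, SE 0.05). The counted SNHG1 transcript is annotated as a retained intron form, with exons of 2769 bp in a span of 3898 bp.

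GAS5 (growth arrest specific 5, chr1:173863901-173869045, minus strand) carries 10 box C/D RNAs and 1 box H/ACA RNA, the most among the members that passed. It reached 935, 977, 946 and 1010 TPM in RNA-seq and 2209 and 2141 TPM in PRO-seq. Its log2 relative half-life was −0.53 (SE 0.04, adjusted p = 1.77e-14, edgeR), 1.45-fold below the median mRNA, yet higher than in 88.7% of other long noncoding genes. With no TPM thresholds and at least 1 summed count, a setting that widens the set of reference mRNAs, GAS5 stood at 0.094, above the reference. SNHG21, host of SCARNA15, had 73 PRO-seq counts, and its call (−0.64, SE 0.23, adjusted p = 0.0119, edgeR) was lost without PRO-seq replicate 1 (adjusted p = 0.0988, edgeR) and by DESeq2 (adjusted p = 0.066). It was also lost with at least 1 summed count and no TPM thresholds (−0.014) and with CPM (−0.27). Other counted TUs on the same strand cover 59.0% of its PRO-seq interval and 64.9% of its exons, and their part in the value was not tested.

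SNHG16, host of SNORD1A, SNORD1B and SNORD1C, and SNHG11, host of SNORA60 and SNORA71E, were not called. SNHG16 stood at −0.08 (SE 0.06, adjusted p = 0.184, edgeR). SNHG11 had 20.02, 22.1, 18.5 and 22.4 TPM in RNA-seq and 32.4 and 26.1 TPM in PRO-seq. Its log2 relative half-life was 0.15 (SE 0.22, adjusted p = 0.498, edgeR) on 51 PRO-seq counts, and −0.015 without PRO-seq replicate 2. The direction for SNHG11 could not be read at this depth. Like that of SNHG1, the counted SNHG11 transcript is annotated as a retained intron form, with exons of 1323 bp in a span of 4345 bp.

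The 4 members above the median mRNA all host box C/D RNAs. SNHG29 (chr17:16438987-16470648, plus strand), host of SNORD49A, SNORD49B and SNORD65, had 1380, 1283, 1327 and 1294 TPM in RNA-seq and 266 and 263 TPM in PRO-seq. Among the 18 members that passed it had the highest RNA-seq levels relative to PRO-seq, at a log2 relative half-life of 2.96 (SE 0.04, adjusted p = 2.73e-31, edgeR). A single one of the 1108 other long noncoding genes had a higher value. Its PRO-seq interval is covered over 92.3% by counted TUs on the opposite strand, whose part in the value was not tested. SNHG30 (chr17:35568114-35574313, plus strand), host of SNORD7, had 91.6, 103, 91.4 and 90.3 TPM in RNA-seq and 59.3 and 52.9 TPM in PRO-seq. The 4 RNA-seq values were all above both PRO-seq values, and the log2 relative half-life was 1.39 (SE 0.12). The GENCODE lift places SNORD7 partly in an exon of the counted SNHG30 transcript, and the part of snoRNA reads in this value was not tested.

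SNHG5 (chr6:85677007-85678733, minus strand), host of SNORD50A and SNORD50B, had 919, 932, 896 and 965 TPM in RNA-seq and 831 and 822 TPM in PRO-seq. Its log2 relative half-life was 0.80 (SE 0.04). SNHG6, host of SNORD87, had 647, 679, 632 and 668 TPM in RNA-seq and 801 and 805 TPM in PRO-seq. With RNA-seq levels just under PRO-seq levels, it was still 1.27-fold above the median mRNA (log2 0.35, SE 0.05). Neighbours in the whole order of 18 differed beyond their 95% intervals in 9 of 17 cases. SNHG5, SNHG30 and SNHG29 each stood apart from the member before.

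**Figure D3:**
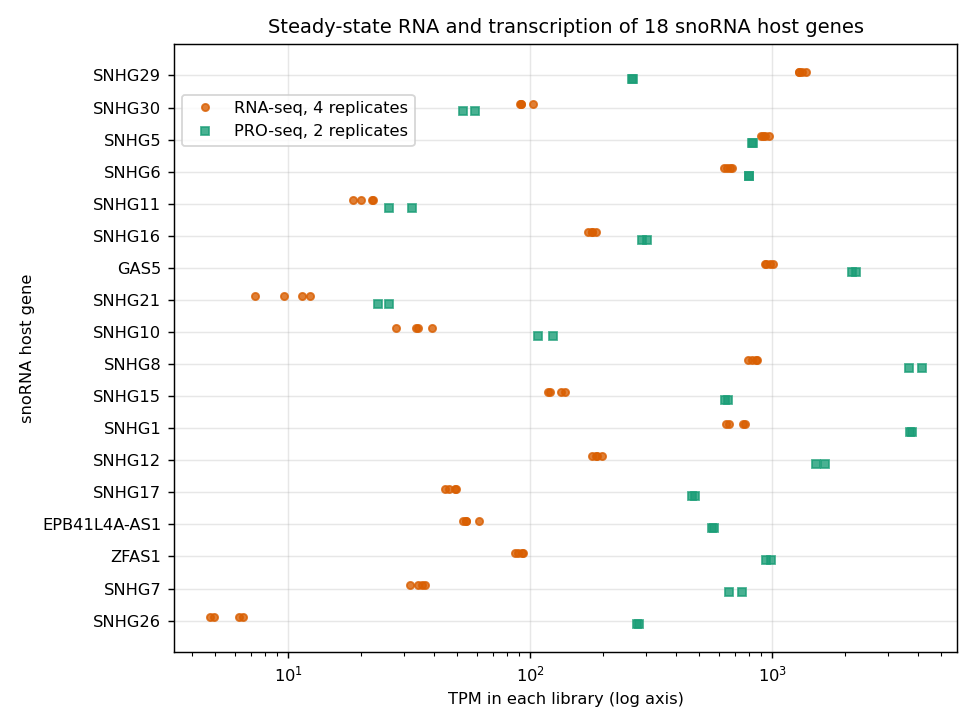
TPM in each library (horizontal, log axis) for the 18 snoRNA host genes, ordered by relative half-life; circles are the 4 RNA-seq replicates and squares the 2 PRO-seq replicates. Replicates of an assay lie close together, and the RNA-seq circles lie left of the PRO-seq squares in every gene except SNHG29, SNHG30 and SNHG5.

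The values of several members turned on the length given to the TU. For SNHG5 the counted span was 17799 bp, 10.3 times the RefSeq gene span of 1727 bp. The counted span was also over 1.5 times the RefSeq span for SNHG7, ZFAS1, EPB41L4A-AS1 and GAS5. A calculation chosen after these values were seen kept the counts and gave the members their RefSeq span less 1000 bp, which places all PRO-seq counts in the shorter interval. SNHG5 then turned to −3.73, GAS5 moved to −1.39, ZFAS1 to −3.77, EPB41L4A-AS1 to −3.99 and SNHG7 to −4.87. SNHG6 lost its call (0.10, adjusted p = 0.0691, edgeR). SNHG8 is 1069 bp long and kept 69 bp for PRO-seq, with 141 counts, and it turned from −1.59 (SE 0.12) to 1.40 when 500 bp in place of 1000 bp was taken as removed. With no length at all (CPM), SNHG1, EPB41L4A-AS1, SNHG15, SNHG8, SNHG10, SNHG16 and SNHG5 changed sign. SNHG29 kept its sign but fell from 2.96 to 0.085 with CPM (adjusted p = 0.0467, edgeR). With 500 bp removed or with the RefSeq span, 9 members, SNHG26, SNHG17, SNHG12 and SNHG1 among them, moved by under 0.2 on the log2 scale.

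By the class of snoRNA named in RefSeq inside each gene span, 8 box C/D hosts passed, with a median log2 relative half-life of 0.13 and values from −4.99 to 2.96. Of these, 3 were called below and 4 above. The 6 box H/ACA hosts that passed had a median of −2.18, with 5 called below and none above. SNHG27 and SNHG28, which did not pass, had no snoRNA named in their RefSeq span. The GENCODE lift places SNORD64 in an intron of SNHG28, and SNORD7 of SNHG30 partly in an exon. SNHG12 and GAS5, with both kinds, were called below, as were the scaRNA hosts SNHG10 and SNHG21. With the RefSeq span SNHG5 moved to the other side, and with 500 bp removed SNHG8 did, so these counts are a description of few genes. Across the 18 members, log2 relative half-life had a Spearman's rho of −0.04 with the number of snoRNAs, −0.07 with the number of introns and −0.64 with exon length. Exon length also divides the RNA-seq counts, so the last value is partly built into the measure.

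Of the 3 tested members with a TOP-like start, SNHG12 stood at −2.43, ZFAS1 at −2.79 and SNHG5 at 0.80. With the RefSeq span all 3 lay below the median mRNA, at −2.43, −3.77 and −3.73. In PRO-seq these 3 ranged from 826 to 1581 TPM. The 13 tested members without such a start and with a sequence read here ranged from 24.8 to 3913 TPM, so the ranges overlap.

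The remaining 11 members did not pass the thresholds, and 4 of them had ample steady-state RNA. SNHG3, host of SNORA73A and SNORA73B, stood at 214, 262, 238 and 264 TPM in RNA-seq. SNHG4, host of SNORA74A, stood at 107, 125, 113 and 130 TPM, and SNHG32, host of SNORD48 and SNORD52, at 233, 251, 245 and 235 TPM. DANCR (chr4:52712394-52720697, plus strand), host of SNORA26, stood at 18.03, 15.7, 19.8 and 14.2 TPM. In PRO-seq SNHG3, SNHG4 and DANCR had 0 counts in both libraries, and SNHG32 had 8 and 5.

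The PRO-seq intervals of these 4 genes lie wholly or nearly wholly inside another counted TU on the same strand. RCC1 covers 100% for SNHG3, MATR3 100% for SNHG4, LINC01618 100% for DANCR, and the lncRNA gene ENSG00000285565 covers 98.99% for SNHG32. Exons of other counted TUs on the same strand also cover 39.7% of the exons of SNHG32, 18.7% for DANCR, 9.72% for SNHG3 and 9.32% for SNHG4. The part of this exon cover in their RNA-seq levels was not tested. Over the whole series, of TUs with at least 100 RNA-seq counts, 91.5% of the 328 that were wholly covered on the same strand had no PRO-seq count. The share was 5.61% of 321 TUs covered on the opposite strand alone and 0.657% of 6091 TUs with no other TU in the interval. A count of 0 in these members is therefore not a measure of their transcription, and no relative half-life was drawn from it.

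The other 7 members had at most 10 RNA-seq counts over 4 libraries. They are SNHG14, SNHG18, SNHG20, SNHG22, SNHG27, SNHG28 and SNHG31. SNHG14 (chromosome 15q, host of the imprinted snoRNA clusters of the Prader-Willi region) had 3 RNA-seq and 16 PRO-seq counts. Its counted transcript spanned 157125 bp, 0.264 of the RefSeq gene span of 595855 bp. The GENCODE lift places SNORD115 copies and SNORD109B in this transcript, but no SNORD116 copy. The low counts therefore do not speak for most of the SNHG14 gene. SNHG22, host of SCARNA17, had 10 RNA-seq and 126 PRO-seq counts, and SNHG20, host of SCARNA16, had 8 and 37. Counted TUs on the opposite strand cover 100% of the PRO-seq interval of SNHG22. The PRO-seq interval of SNHG20 is covered over 82.3% by SEC14L1 on the same strand, and 42.2% of its exons by counted TUs on that strand. The part of this cover in the counts was not tested. SNHG31 had 7 RNA-seq and 72 PRO-seq counts, and SNHG18 had 1 of each. SNHG27 had 0 RNA-seq counts, which allows up to 0.550 TPM (3 counts over the 4 libraries, counting error only), and 5 PRO-seq counts. SNHG28 had 0 in every library, but its exons and PRO-seq interval are wholly covered by another counted gene.

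Introns of protein-coding genes carry snoRNAs too. The GENCODE annotation used here gave 393 protein-coding hosts, of which 236 passed. Of these, 83 (35.2%) were called below and 140 (59.3%) above the median mRNA. Among all 8733 mRNAs that passed, 44.9% were called below and 45.4% above. The median log2 relative half-life of these hosts was 0.60, and that of 24 ribosomal protein hosts was 2.44. The highest were RPL4, a ribosomal protein gene (4.73, SE 0.03), and YWHAH, which encodes a 14-3-3 protein (4.72, SE 0.17). The lowest were MATR3, which encodes a nuclear matrix protein (−4.31, SE 0.13), and CSKMT (−3.97, SE 0.10). MATR3 is the gene whose counted TU covers SNHG4. Other counted TUs on the same strand cover 88.7% of the PRO-seq interval of YWHAH, which had 10.6 TPM in PRO-seq, and 82.6% of that of MATR3, and their part in these values was not tested. This annotation lacks many known snoRNA genes, so the list of protein-coding hosts is not complete.

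The mRNAs of proteins that make snoRNPs were measured in the same fit. All 19 genes of the list passed, with 16 (84.2%) called above the median mRNA and 3 (15.8%) below, and a median of 1.24. Among all mRNAs that passed, 45.4% were called above and 44.9% below. RUVBL2 (3.44, SE 0.05) and RUVBL1 (2.85, SE 0.05), the paired ATPases of snoRNP assembly, were highest. NAF1 (−0.96, SE 0.10), an assembly factor of box H/ACA particles, and NUFIP1 (−0.88, SE 0.10), which acts on box C/D particles, were lowest. Of the nonsense-mediated decay list of 10 genes, 9 were matched and 8 passed. With 4 called above and 4 below, its shares were near those of all mRNAs. UPF1, the central helicase (0.54, SE 0.06), and SMG5 (0.34, SE 0.05) were highest, and SMG9 (−2.56, SE 0.07) was lowest. SMG8 had 41.5 TPM in RNA-seq but 0 in PRO-seq, and its interval is covered over 99.7% on the same strand.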

How the data were processed

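Per library, the authors deposited raw HTSeq counts per transcript, made from reads trimmed by cutadapt and mapped by HISAT2 on GRCh38. RNA-seq was counted over exons, and PRO-seq over the TU without 500 bp at each end. The sources used here give neither the tool versions nor whether counting used strand. Rows that name no TU held 66.5% to 68.6% of RNA-seq and 86.5% and 88.6% of PRO-seq records and were left out, as were 801 LRG rows, all at 0. Of 42371 Ensembl transcripts, 37339 (88.1%) were matched by ID to GENCODE release 44 lifted to GRCh37, which gave lengths, classes and overlaps. These lengths may differ from those counted on GRCh38.

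Gene coordinates, start sequences and snoRNA content of the members are from RefSeq on GRCh38.p14. The snoRNA content is all SNORD, SNORA and SCARNA genes within the gene span, without regard to strand, a rule set after seeing that the GENCODE lift lacks most of them. The plan had been to use snoRNAs annotated in introns.

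TUs were tested with the quasi-likelihood test of edgeR 4.0.16 in R 4.3.3, with TMM normalization, length offsets and Benjamini-Hochberg adjustment at 0.05. DESeq2 (version 1.42.0) was an alternative. SEs were computed from the fitted weights. Other steps used Python 3.11.15. The fit was tested on simulated data. Same-numbered replicates of the assays did not deviate together (Pearson's r = −0.01 over 9962 TUs), so no block was used. Every member is named. Values per library are given for the 5 highest, the 5 lowest, SNHG1, GAS5, ZFAS1, DANCR and EPB41L4A-AS1. For SNHG3, SNHG4 and SNHG32 they were added after seeing the values. From each other list the 2 highest and 2 lowest called genes are named, except 1 gene that is not reported here. Members and lists were chosen with earlier results of these data known. Intervals and floors cover counting error only.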

Additional observations from a re-analysis of the deposited data

Results flagged for a closer look

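Among the 24 members with counts in every RNA-seq library, the 4 RNA-seq TPM values were checked for 1 library far from the others. SNHG30 alone stood out: replicate 2 held 103 TPM, whereas the other replicates held between 90.3 and 91.6 TPM. Its gap to the nearest replicate was 0.894 of the whole range, above Dixon's 95% critical value for 4 samples. By chance about 1 group in 20 is picked out in this way. Without RNA-seq replicate 2 SNHG30 was still called above the median mRNA.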

How the results depend on the processing

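With CPM in place of TPM, so without length, 7 members were called below and 9 above, and the median turned to 0.048. EPB41L4A-AS1 then turned to 0.63, SNHG1 to 1.37, SNHG15 to 0.0011, SNHG8 to 4.43, SNHG10 to 2.11, SNHG16 to 1.69 and SNHG5 to −0.35. With 500 bp removed the median was −0.66 and SNHG8 turned to 1.40. With the RefSeq span, chosen after seeing the data, 2 members were above, the median was −1.76 over 19 members and SNHG5 turned to −3.73. With at least 1 summed count 8 members were above, the median was −1.01 over 24 members, and GAS5 turned to 0.094 and SNHG16 to 0.55, and with at least 10 counts SNHG16 turned to 0.034. With a difference of 2-fold tested, 9 members were below and 2 above, and SNHG10, SNHG21, GAS5, SNHG6 and SNHG5 lost their calls. In that setting the calls below and above were 0 and 10 for the snoRNP list, 2 and 0 for the decay list and 27 and 93 for protein-coding hosts. Leaving out 1 library gave 11 to 12 members below, 4 above, a median from −1.40 to −1.32, and 18 members past the thresholds, and SNHG11 ran from −0.015 without PRO-seq replicate 2 to 0.329 without PRO-seq replicate 1. In the same runs 3 genes of the snoRNP list were below and 15 to 16 above, 4 of the decay list on each side, and 80 to 84 protein-coding hosts below and 138 to 140 above. With the replicate number as a block 12 members were called below and 4 above, and no member's call changed. The numbers do not pair the samples. Without SNHG8 and SNHG21, which have a short or shared PRO-seq interval, the median was −1.40 (also chosen after seeing the data, as was summing the close RNA-seq libraries, which changed no member's call). What caused the changes was not tested. Depth limits SNHG11, SNHG21 and SNHG10, with under 100 PRO-seq counts each.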
